A study of Mus musculus with 40 samples.

Results

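The comparison described here sets wild type mouse macrophages after 24 h of lipopolysaccharide (LPS) against the same kind of cells before LPS, and asks which RNAs differ a day later. Its members are the 4 libraries titled as wild type 24 h after treatment and the 4 titled as wild type before treatment, 8 of the 40 libraries of the series. All were macrophages grown from mouse bone marrow with L929-conditioned medium, which supplies the growth factor M-CSF. Both groups carried the Otulin fl/fl genotype, a loxP-flanked Otulin gene with no Cre listed, so "wild type" (WT) means floxed and undeleted. One group was sampled at 0 h without LPS, and the other after 24 h with 500 ng/ml of ultrapure LPS from Salmonella minnesota. WT libraries at 3, 6 and 12 h and the Cre-carrying genotype (KO) at 0 and 24 h are used only for context. No group was kept for 24 h without LPS, so LPS and a further day in culture cannot be told apart in any value below.

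LPS is sensed by the receptor TLR4 with its partners CD14 and MD-2, which signal through the adaptors MyD88 and TRIF. The MyD88 arm leads to NF-κB and a fast wave of cytokine RNAs that are short-lived and held down by feedback inhibitors. The TRIF arm leads to IRF3 and interferon-β, which acts back on the cells through JAK kinases and STAT factors and maintains a second wave of antiviral and antigen presentation genes. Macrophages in prolonged contact with LPS are known to rework their metabolism and to leave the cell cycle.

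RNA was counted by 3′ tag sequencing, which reads transcripts only near their 3′ ends. Library totals ran from 4743191 to 5716348 counts at 0 h and from 4209612 to 6166312 at 24 h. After a filter on low counts 12151 genes were tested. Levels are counts relative to scaled library totals (CPM), and differences are log2 changes ± standard error (SE) from edgeR with 4 libraries per time. Calls use an adjusted p under 0.05. The defining macrophage markers were present at both times, none of the 8 at 0 in any group, with a summed level of 4629 to 5075 CPM at 0 h and 6082 to 7739 CPM at 24 h. Replicate 4 came from a male and replicates 1 to 3 from females at both times by Xist and Y-linked counts, so sex was balanced between the groups. Mitochondrial mRNA held 1.35% to 1.63% of counts at 0 h and 0.740% to 0.841% at 24 h, and the nuclear RNA Malat1 0.498% to 0.680% and 0.906% to 1.07%. The part of RNA quality in the results was not tested. The labels call the 4 libraries biological replicates.

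A day after LPS most measured genes differed from their level before it. At 24 h 8489 of 12151 genes were called against 0 h (69.9%), 4193 higher (34.5%) and 4296 lower (35.4%). A change of over 2-fold was called by edgeR's test against a threshold for 2324 genes (19.1%), 1202 higher (9.89%) and 1122 lower (9.23%). Against 3 h of LPS 8307 genes were called at 24 h (68.4%), 4117 higher (33.9%) and 4190 lower (34.5%). These shares are the background for every list below, so that a share near them says nothing particular about a list. The lists were chosen with earlier results of these data known, so a list's distance from these shares is a description and not a test. With library totals alone the median change of all genes moved by −0.30, from −0.02 to −0.32, and 31.6% of called genes were higher in place of 49.4%, and among those over 2-fold 33.3% in place of 51.7%. Directions below are therefore relative to the bulk of genes.

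The genes that differed at 24 h had reached their extremes at different times. Among the 1202 genes over 2-fold higher, the highest mean of the 5 times was at 24 h for 413, at 12 h for 313, at 6 h for 373 and at 3 h for 103. Among the 1122 genes over 2-fold lower, the lowest mean was at 24 h for 651, at 12 h for 280, at 6 h for 180 and at 3 h for 11. These counts order means and have no test. The plot of list members shows where each gene group stood at 24 h, and the plot of list medians how it came there.

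**Figure D1:**
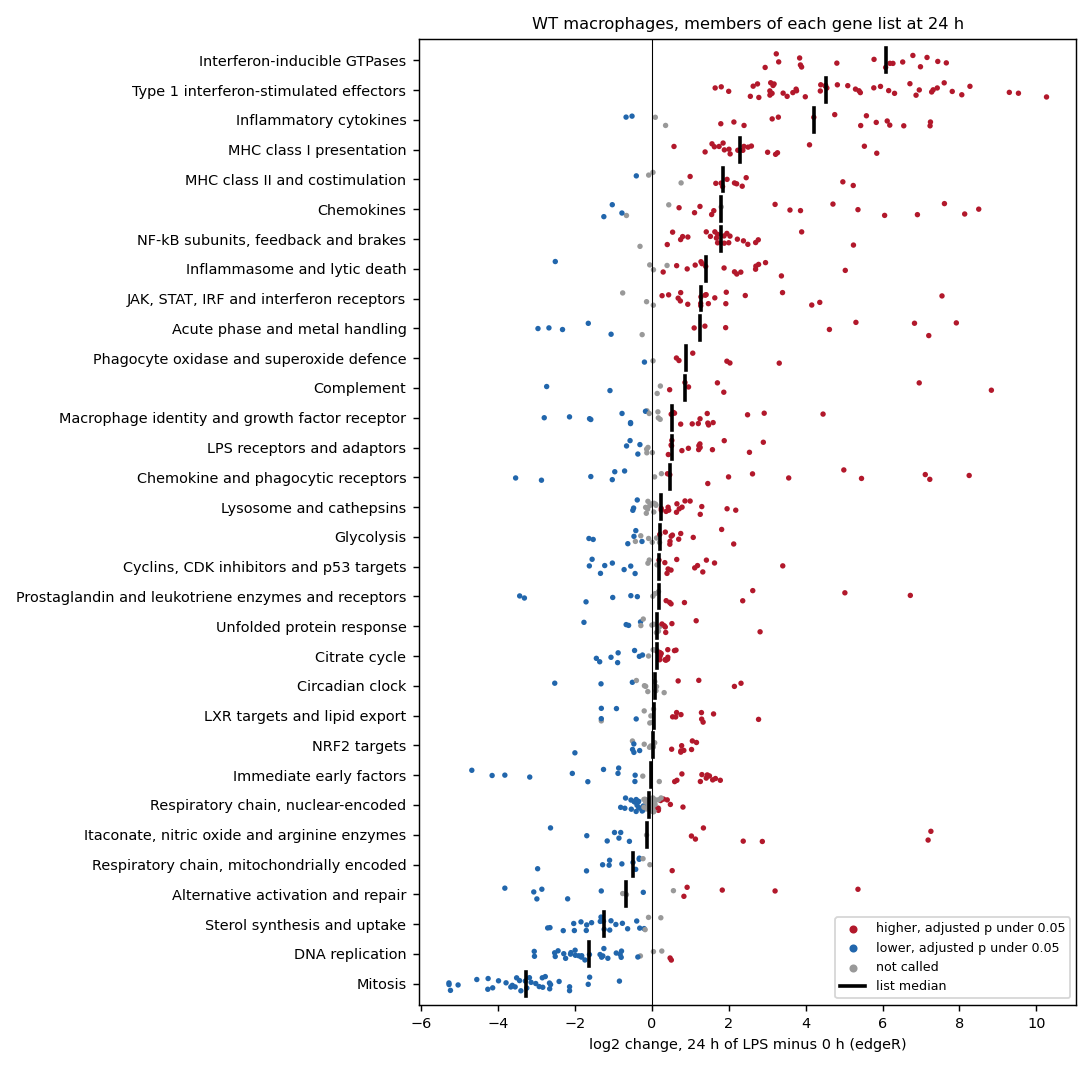
Log2 change at 24 h against 0 h (x axis, edgeR, 4 libraries per time) of each tested gene in 32 lists (rows, ordered by median). Red points were called higher, blue lower, grey not called, and black bars mark list medians, from 6.08 for the interferon-inducible GTPases to −3.27 for mitosis.

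**Figure D2:**
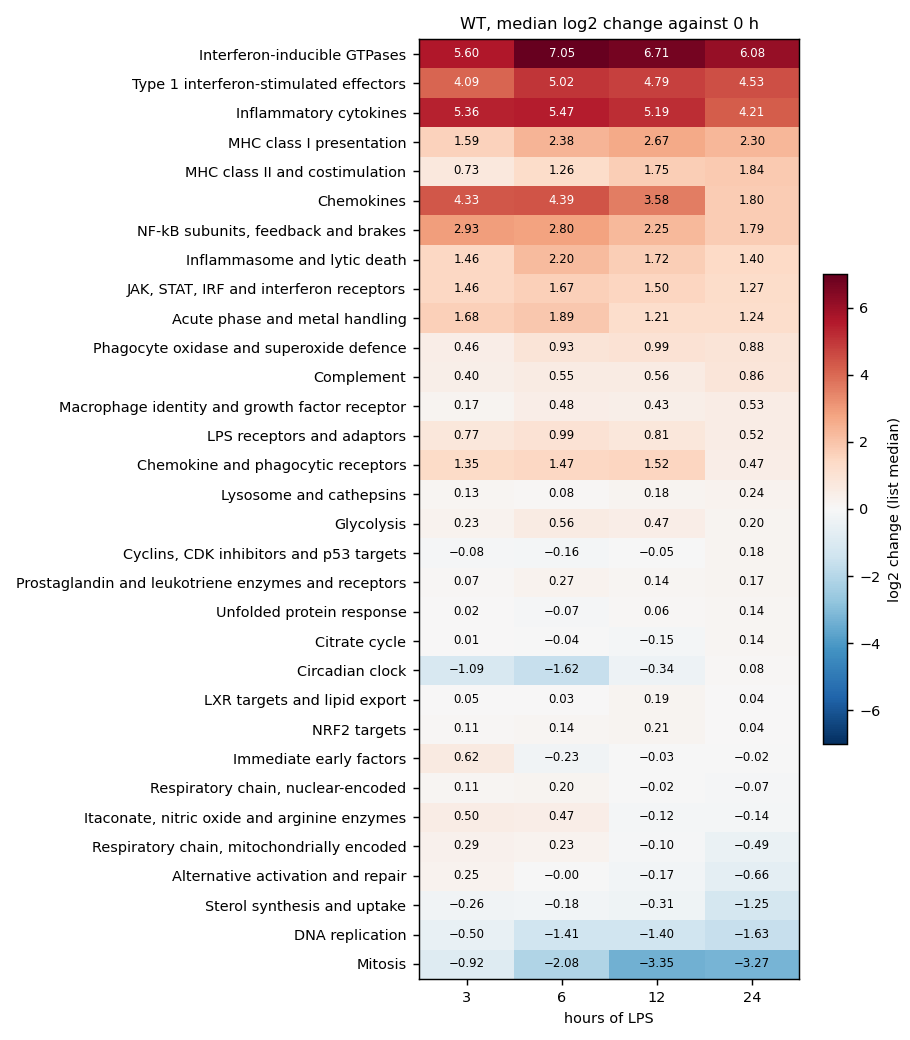
Median log2 change of each list (rows) at 3, 6, 12 and 24 h of LPS (columns) against 0 h in WT, all 4 with the same 0 h libraries. Antiviral effectors keep a median of 4.53 at 24 h after 5.02 at 6 h, and sterol genes move from −0.26 at 3 h to −1.25 at 24 h. The chemokine median goes from 4.33 at 3 h to 1.80 at 24 h, the latter being the value of Cxcl1, which was not called.

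Interferon-stimulated antiviral effectors stayed high. All 46 tested genes were higher at 24 h than at 0 h, and all 46 by over 2-fold, against 34.5% and 9.89% of all genes tested. The median was 4.53 and the range 1.65 to 10.26. Members that passed the filter only through their level under LPS had to differ from 0 h. The filter thus fixed part of this share in advance. How many members it concerns was not counted, but 1 had at most 3 counts over the 4 libraries at 0 h. The list's medians at 3, 6 and 12 h were 4.09, 5.02 and 4.79. Against 3 h, 26 were higher at 24 h and 10 lower, beside 33.9% and 34.5% of all genes. In these bulk samples fewer cells with a transcript and less transcript per cell cannot be told apart. The list, with the GTPases, took 0.156% to 0.214% of all counts at 0 h and 3.11% to 3.62% at 24 h.

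Rsad2, the antiviral enzyme viperin, had the highest CPM of them. It lay at 71.8, 158, 252 and 195 CPM at 0 h and 6744, 7634, 6509 and 7404 CPM at 24 h, a rise of 5.39 ± 0.28 (edgeR adjusted p = 1.07e-11). Its mean was 14270.2 CPM at 6 h, and 24 h did not differ from 3 h by the test (−0.38 ± 0.23, edgeR adjusted p = 0.159). Ifit2, which binds viral RNA, lay at 2.22, 7.22, 10.3 and 8.25 CPM at 0 h and 1563, 1711, 1539.9 and 1363 CPM at 24 h. It rose by 7.81 ± 0.28 and stood above its 3 h level by 1.06 ± 0.19 (edgeR adjusted p = 8.45e-05). Ifit3, its partner, had means of 5.38, 375 and 819 CPM at 0, 3 and 24 h, and Ifit1bl1 of 2.19, 98.1 and 574 CPM. The lowest of the 4 libraries at 0 h was replicate 1 for all 4 genes, and in each the groups stood far apart.

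Of the 46 effectors 31 had their highest mean at 6 h, 10 at 12 h and 5 at 24 h. Slfn4, a Schlafen family gene of myeloid cells, had means of 0.48, 10.6, 64.5, 212 and 368 CPM at 0, 3, 6, 12 and 24 h. Its rise over 0 h was 9.53 ± 0.39, or 10.33 without replicate 4 at 0 h, where the 4 libraries held 12 counts in all. Oasl1, an oligoadenylate synthetase-like gene that restrains interferon production, had means of 127 CPM at 3 h and 436 CPM at 24 h. It lay 1.77 ± 0.11 above 3 h (edgeR adjusted p = 2.34e-13) and 9.30 ± 0.19 above 0 h, or 9.96 without replicate 3 at 0 h. The smallest change in the list was that of Eif2ak2, the kinase PKR that senses double-stranded RNA. It went from 33.6 CPM at 0 h to 382 at 6 h and 105 at 24 h, a rise of 1.65 ± 0.10.

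The interferon-inducible GTPases, which attack the vacuoles of intracellular microbes, were higher at 24 h as well. All 17 tested were above 0 h by over 2-fold, with a median of 6.08, or 5.41 with 3 counts per group as a floor for the 2 members that had no more at 0 h. The limit of the filter given above holds for these genes as well. Their median was 7.05 at 6 h, and 7 were higher and 6 lower at 24 h than at 3 h. Gbp5 lay at 0.693, 2.35, 4.47 and 3.49 CPM at 0 h and 303, 342, 331 and 395 CPM at 24 h. It stayed 6.99 ± 0.20 above 0 h, and the difference of 24 h from 3 h was −1.21 ± 0.13 (edgeR adjusted p = 3.48e-08). Iigp1 lay at 0.832, 3.53, 6.29 and 4.92 CPM at 0 h and 494, 735, 727 and 685 CPM at 24 h (7.44 ± 0.32), with a mean of 1642 CPM at 6 h. Tgtp1 and Tgtp2, like Ifit3 and Ifit3b, are near-identical neighbours that can share reads.

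Promoters from both lists are shown because all their tested members were higher. The interferon-stimulated response element binds a complex of STAT and IRF factors, and its core was searched as GAAANNGAA on both strands in the 250 bases before each gene's start (RefSeq, GRCm38.p6). Of 36 antiviral effectors with an entry, 17 (47.2%) held a match, and of 11 GTPases 10 (90.9%), against 7.16% of 27025 promoters. Matches are in capitals, and a match is a description and not a shown site. The upstream stretch of Ifit1bl1 lies at chr19:34601969-34602218 on the minus strand and that of Gbp5 at chr3:142496684-142496933 on the plus strand.
Ifit1bl1: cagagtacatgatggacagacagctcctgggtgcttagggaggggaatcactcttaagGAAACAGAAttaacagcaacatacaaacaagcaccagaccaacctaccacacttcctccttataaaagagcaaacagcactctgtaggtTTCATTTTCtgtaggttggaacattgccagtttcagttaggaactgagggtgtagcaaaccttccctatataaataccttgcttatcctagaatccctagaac
Gbp5: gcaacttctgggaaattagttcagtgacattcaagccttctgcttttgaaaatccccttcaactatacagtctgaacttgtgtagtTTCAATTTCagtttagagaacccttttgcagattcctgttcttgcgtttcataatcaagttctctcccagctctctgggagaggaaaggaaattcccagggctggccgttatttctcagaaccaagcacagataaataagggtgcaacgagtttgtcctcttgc

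The factors that carry the interferon signal were also raised. Of 23 JAK, STAT, IRF and interferon receptor genes 20 were higher at 24 h, 13 over 2-fold, and 0 lower (median 1.27). With library totals the counts were 17 and 2. Irf7, the factor that amplifies interferon production, lay at 2.08, 4.20, 3.81 and 4.60 CPM at 0 h and 641, 710.1, 644 and 729 CPM at 24 h. It rose by 7.55 ± 0.21 and was 2.39 ± 0.14 above 3 h (edgeR adjusted p = 5.22e-12). Irf1 ran the other way after 3 h, with means of 1195 CPM at 3 h and 448 CPM at 24 h, still 3.40 ± 0.085 above 0 h. Stat5a, which carries growth factor signals, peaked at 147 CPM at 3 h, with values of 12.8, 12.0, 12.1 and 11.7 CPM at 24 h beside 13.3, 13.1, 14.7 and 12.4 CPM at 0 h (−0.14 ± 0.11, edgeR adjusted p = 0.303). Irf3, the factor downstream of TRIF, was at 28.7 and 29.4 CPM (0.04 ± 0.13, edgeR adjusted p = 0.809). Neither passed the test, nor did Irf4 (−0.76 ± 0.43, edgeR adjusted p = 0.119), which was called lower without replicate 4 at 24 h (adjusted p = 0.0320). Ifnb1, which encodes interferon-β, had 0 counts over the 4 libraries at 0 h and 76 at 24 h, at least 33.7-fold higher against a floor of 3 counts over the group.

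Most genes of MHC class I presentation were higher at 24 h than at 3 h. All 20 genes of MHC class I presentation were above 0 h, 19 over 2-fold (median 2.30), and 18 were above 3 h and 1 below. The list's medians at 3, 6 and 12 h were 1.59, 2.38 and 2.67. H2-K1, a classical class I heavy chain, lay at 606, 630.0, 693 and 680.1 CPM at 0 h and 2403, 2375, 2230.2 and 2405 CPM at 24 h. Its rise was 1.85 ± 0.076, and 24 h lay 0.88 ± 0.074 above 3 h (edgeR adjusted p = 9.39e-11). B2m, the light chain, went from 1062 to 1759.7 to 3138 CPM at 0, 3 and 24 h (1.56 ± 0.10 above 0 h). H2-Q7, a nonclassical class I gene, rose most of the list, from 2.66 to 155 CPM (5.85 ± 0.13), though H2-Q6 and H2-Q7 are near copies. Nlrc5, the activator of class I genes, was the member below 3 h, with a difference of −0.41 ± 0.10 (edgeR adjusted p = 4.97e-04), and was 3.27 ± 0.12 above 0 h. The smallest rise was that of the trimming peptidase Erap1 (0.57 ± 0.082). H2-K1, B2m and H2-Q7 had their highest means at 24 h. In all, 9 of the 20 did so, while 9 had theirs at 12 h and 2 at 6 h.

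Of 15 tested genes of MHC class II and costimulation (16 listed) 11 were higher at 24 h, 10 over 2-fold, and 1 lower (median 1.84). The lower one, the costimulatory ligand Cd80 (−0.41 ± 0.17, edgeR adjusted p = 0.0378), lost its call without any one of replicates 1 to 3 at 0 h or replicates 3 and 4 at 24 h, with an adjusted p of up to 0.208. Cd80 was not called by DESeq2 or with only the 8 libraries compared either. The list's median was 0.73 at 3 h, and 9 members were above 3 h and 4 below. H2-Ab1, a class II chain, lay at 17.5, 25.7, 26.5 and 28.9 CPM at 0 h and 134, 129, 127 and 109 CPM at 24 h (2.35 ± 0.14), 1.61 ± 0.14 above 3 h (edgeR adjusted p = 6.50e-10). Ciita, the class II activator, had its highest mean, 29.2 CPM, at 3 h, then 9.85 CPM at 24 h against 1.85 CPM at 0 h. Cd274, which encodes the checkpoint ligand PD-L1, lay at 25.8, 26.0, 25.7 and 28.1 CPM at 0 h and 1156, 938, 928 and 963 CPM at 24 h, a rise of 5.24 ± 0.13 (edgeR adjusted p = 1.74e-21). Its level was 0.76 ± 0.10 above 3 h. Cd40, a receptor for T cell help, ran from 1128 CPM at 6 h to 174 CPM at 24 h, still 4.97 ± 0.14 above 0 h. Icosl, another ligand for T cells, had peaked at 93.1 CPM at 3 h, with values of 12.9 CPM beside 12.5 CPM at 0 h (0.03 ± 0.21, edgeR adjusted p = 0.918). Ifi30, a lysosomal reductase, and H2-DMb2 did not pass the test either, though H2-DMb2 did without replicate 4 at 24 h (0.96, adjusted p = 0.0278).

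Inflammatory cytokines had dropped from their 3 h level but mostly stayed above 0 h. Of 19 tested of 25 listed 15 were higher at 24 h, all 15 over 2-fold, and 2 lower (median 4.21), while 13 were below 3 h and 2 above. Csf2, Csf3, Il12a, Il23a, Il36g and Lif did not pass the filter. Here and in the other lists, members that passed it only through their induced level had to differ from 0 h. Tnf lay at 24.8, 25.2, 27.3 and 30.3 CPM at 0 h and 103, 127, 80.1 and 63.1 CPM at 24 h. At 3 h its mean was 745 CPM, and the difference of 24 h from 3 h was −3.00 ± 0.21 (edgeR adjusted p = 6.71e-10). It remained 1.79 ± 0.22 above 0 h. Il1b lay at 0.832, 3.53, 3.81 and 4.12 CPM at 0 h and 304, 238, 144 and 157 CPM at 24 h, with means of 1364, 1139 and 462 CPM at 3, 6 and 12 h. Replicates 1 and 2 were above replicates 3 and 4 at 24 h in both genes.

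The third cytokine, Il6, had the lowest level of them at 24 h. Its libraries held 21.5, 12.9, 9.72 and 6.81 CPM at 24 h against 0.139, 0.672, 0 and 0.159 CPM at 0 h, and its mean had been 286 CPM at 3 h and 269.9 CPM at 6 h. The change from 0 h was 5.58 ± 1.18 (edgeR adjusted p = 5.31e-04), or 6.60 without replicate 2 at 0 h, from 6 counts over the 4 libraries. Il12b, a subunit of IL-12 and IL-23, lay at 120.3, 43.2, 43.6 and 49.5 CPM at 24 h, with replicate 1 far above the others, and at 0.39 CPM at 0 h (7.25 ± 0.84). Il1rn, which encodes the antagonist of the IL-1 receptor, was still above its 3 h level at 24 h. Its libraries held 43.0, 62.8, 70.3 and 68.8 CPM at 0 h and 1093, 1272, 1029 and 1134 CPM at 24 h, 0.76 ± 0.16 above 3 h (edgeR adjusted p = 2.43e-04) and 4.21 ± 0.18 above 0 h, with means of 1822 and 1927 CPM at 6 and 12 h. At 3 h the mean of Il1b was 1364 CPM and that of Il1rn 668 CPM, and at 24 h they were 211 and 1132 CPM. Tag counts do not scale with transcript length, but how fully the tags of each gene are counted was not checked. The CPM of Il1b and Il1rn are therefore set side by side as tag levels only. Tnfsf9, the ligand of 4-1BB, had fallen from 69.3 CPM at 3 h to 3.87 CPM beside 2.96 CPM at 0 h (0.36 ± 0.72, edgeR adjusted p = 0.676), and Osm was not called either. Csf1, which encodes M-CSF itself, rose to 296 CPM at 3 h and then sank below its start. It lay at 34.5, 31.4, 38.4 and 34.9 CPM at 0 h and 21.0, 25.4, 22.3 and 18.5 CPM at 24 h (−0.67 ± 0.19, edgeR adjusted p = 0.00349). Tgfb1, an anti-inflammatory cytokine, was the other one called lower.

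Chemokines split between those that lasted and those that did not. Of 21 tested of 23 listed 15 were higher at 24 h, 11 over 2-fold, 3 lower and 3 not called (median 1.80 against 4.33 at 3 h), and 14 were below 3 h and 3 above. The median at 24 h is the value of Cxcl1, which was not called, and that at 3 h the value of Ccl3. Taken by replicate number, the 24 h median had a standard deviation of 0.88. Ccl5, a chemokine for T cells, lay at 2.36, 11.6, 25.5 and 15.7 CPM at 0 h and 2905, 2709, 2357 and 2605 CPM at 24 h, a rise of 7.61 ± 0.36 and 1.13 ± 0.26 above 3 h (edgeR adjusted p = 0.00112). Cxcl9 and Cxcl11, interferon-inducible ligands of CXCR3, lay at 94.8 and 173 CPM at 24 h against 0.247 and 0.609 CPM at 0 h. Their changes were 8.50 ± 0.34 and 8.14 ± 0.38, and for Cxcl9, with 6 counts at 0 h, 9.52 without replicate 3 at 0 h. Cxcl10, the other ligand of that receptor, went from 3156 CPM at 3 h to 838 CPM at 24 h (6.05 ± 0.31 above 0 h). Ccl3, a monocyte attractant, lay at 42.6, 41.8, 52.6 and 48.1 CPM at 0 h and 76.2, 75.2, 54.4 and 45.8 CPM at 24 h, with overlapping groups, after 931 CPM at 3 h. Its change of 0.44 ± 0.21 did not pass the test (edgeR adjusted p = 0.0726), but did with DESeq2 (0.48, adjusted p = 0.0142), with only the 8 libraries compared (0.45, adjusted p = 0.0231) and without replicate 4 at 24 h (0.56, adjusted p = 0.0288). Cxcl1, a neutrophil attractant, lay at 0.693, 0.168, 1.66 and 1.74 CPM at 0 h and 6.75, 4.07, 3.45 and 0.939 CPM at 24 h after 216 CPM at 3 h. It was not called (1.80 ± 0.87, edgeR adjusted p = 0.0768), but was with the replicate number as a block (1.82, adjusted p = 0.00163) and without replicate 4 at 24 h (2.09, adjusted p = 0.0493). Ccl24 was the third chemokine not called. Called lower were Ccl6 (−1.03 ± 0.12), Cxcl14 (−0.78 ± 0.20) and, at 1.27 and 0.569 CPM, Cx3cl1 (−1.25 ± 0.56, edgeR adjusted p = 0.0480). Cx3cl1 changed by −1.86 without replicate 1 at 24 h and lost its call without any one of replicates 1, 2 and 4 at 0 h or 2, 3 and 4 at 24 h, with an adjusted p of up to 0.197. It was not called by DESeq2 or limma either.

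The promoters of Il6, a cytokine whose RNA had dropped at 24 h, and Cxcl9, an interferon-inducible chemokine (24 h minus 3 h −0.50 ± 0.15, edgeR adjusted p = 0.00692, and −4.51 ± 0.46, edgeR adjusted p = 2.71e-07, for Il6), are shown side by side because both hold the sequence GGGANTTTC, one form of the NF-κB element. It was found in 4 of 15 chemokine promoters (26.7%) and 2 of 17 cytokine promoters (11.8%), against 0.977% of 27025, with the same window and strands as above and matches in capitals. The stretch before Il6 lies at chr5:30012864-30013113 on the plus strand and that before Cxcl9 at chr5:92328080-92328329 on the minus strand (GRCm38.p6). On these strands the match of Il6 starts 44 bases and that of Cxcl9 154 bases before the gene's start.
Il6: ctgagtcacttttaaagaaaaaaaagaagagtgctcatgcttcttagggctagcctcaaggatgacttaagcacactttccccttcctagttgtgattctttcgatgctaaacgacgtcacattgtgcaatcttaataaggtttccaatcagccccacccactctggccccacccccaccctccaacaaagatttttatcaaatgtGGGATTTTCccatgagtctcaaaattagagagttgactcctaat
Cxcl9: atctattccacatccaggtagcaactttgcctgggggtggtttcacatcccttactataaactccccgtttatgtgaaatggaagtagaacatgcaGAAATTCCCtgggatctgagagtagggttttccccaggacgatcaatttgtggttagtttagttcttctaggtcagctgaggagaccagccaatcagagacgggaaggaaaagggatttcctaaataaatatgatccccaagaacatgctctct

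The inhibitors that restrain these signals remained above 0 h while sinking from their peak. Of 24 tested NF-κB subunits, feedback genes and brakes 23 were higher at 24 h, 18 over 2-fold, 0 lower and 1 not called (median 1.79 against 2.93 at 3 h). With library totals 22 were higher and 1 lower. Against 3 h 21 were lower and 1 higher. Socs3, which blocks cytokine receptors of the IL-6 type, lay at 4.16, 3.53, 4.47 and 2.86 CPM at 0 h and 156, 173, 140.5 and 104 CPM at 24 h. It was 5.24 ± 0.17 above 0 h, and the difference of 24 h from 3 h was −2.19 ± 0.12 (edgeR adjusted p = 1.51e-13). Socs1, which blocks interferon signalling, had means of 2.53, 262 and 38.2 CPM at 0, 3 and 24 h. Tnip3, an A20-binding inhibitor, had means of 32.7, 932 and 212 CPM. The member not called was Nfkbid, at 6.92 and 5.60 CPM (−0.31 ± 0.19, edgeR adjusted p = 0.139). Irak3, a kinase-dead brake on TLR signalling, was the member above 3 h. Its libraries held 21.4, 20.7, 18.5 and 19.0 CPM at 0 h and 90.2, 73.8, 78.5 and 50.9 CPM at 24 h, 0.83 ± 0.18 above 3 h (edgeR adjusted p = 4.31e-04).

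Sensing genes changed unevenly. Of 22 tested LPS receptors and adaptors 14 were higher and 4 lower at 24 h (median 0.52), or 10 and 8 with library totals, and 8 were over 2-fold higher. Tlr4 lay at 67.7, 64.0, 70.5 and 78.0 CPM at 0 h and 42.4, 55.2, 43.3 and 48.3 CPM at 24 h, with no overlap, a change of −0.57 ± 0.09 (edgeR adjusted p = 3.76e-06). Cd14, which hands LPS to TLR4, lay at 122, 112, 129 and 125 CPM at 0 h and 292, 206, 176 and 167 CPM at 24 h (0.78 ± 0.14) after 639 CPM at 3 h. Tlr2, the receptor for bacterial lipoproteins, had a mean of 531 CPM at 3 h and then fell below its start. Its libraries held 46.0, 50.5, 45.5 and 51.2 CPM at 0 h and 31.1, 31.0, 29.0 and 31.4 CPM at 24 h (−0.66 ± 0.10, edgeR adjusted p = 2.76e-06). Tlr3, the endosomal sensor of double-stranded RNA, rose by 2.90 ± 0.12, from 10.3 to 76.8 CPM, and Tlr1 by 2.54 ± 0.15. Ticam1, which encodes TRIF, lay at 14.2, 14.4 and 42.3 CPM at 0, 3 and 24 h (1.57 ± 0.11 above 0 h). Tirap, an adaptor, and Tlr13, a sensor of bacterial ribosomal RNA, were the other 2 called lower.

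Immediate early transcription factors, which answer a stimulus within minutes, stood on both sides of 0 h. Of 24 tested 11 were higher and 11 lower at 24 h (median −0.02). Egr2 lay at 21.1, 20.5, 29.3 and 31.7 CPM at 0 h and 2.89, 2.26, 1.10 and 1.17 CPM at 24 h (−3.83 ± 0.29), and Egr3 at 10.0 and 0.35 CPM (−4.68 ± 0.34). Myc, a factor that drives cell growth, was already at 3.70 CPM at 3 h, with values of 17.9, 13.6, 21.0 and 17.8 CPM at 0 h and 2.17, 2.49, 2.19 and 0.704 CPM at 24 h (−3.18 ± 0.33, edgeR adjusted p = 8.24e-09). Fos and Klf2 were not called, but Klf2 was called lower by edgeR with library totals (−0.54, adjusted p = 0.000488), with no filter on low counts (−0.27, adjusted p = 0.0460) and with only the 8 libraries compared (−0.22, adjusted p = 0.04996).

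Genes of inflammasomes and lytic death were mostly raised. Of 21 tested 17 were higher at 24 h, 12 over 2-fold, and 1, the sensor gene Nlrp1b, lower (median 1.40), or 16 and 2 with library totals. Casp4, the caspase (also called caspase-11) that binds LPS in the cytosol, lay at 9.29, 7.72, 8.11 and 9.99 CPM at 0 h and 87.8, 86.5, 101 and 88.2 CPM at 24 h (3.37 ± 0.13). Mefv, which encodes the sensor pyrin, rose by 5.03 ± 0.19, from 1.26 to 41.9 CPM. Mlkl, which perforates the membrane in necroptosis, lay at 11.4, 7.22, 10.1 and 8.41 CPM at 0 h and 77.2, 68.8, 77.9 and 65.9 CPM at 24 h and was 1.28 ± 0.10 above 3 h (edgeR adjusted p = 2.81e-11). Birc3, an inhibitor of apoptosis, rose by 2.77 ± 0.12. Nlrp3, in contrast, had risen to 181 CPM at 3 h, with values of 31.3, 32.9, 31.3 and 32.2 CPM at 0 h and 36.4, 36.4, 28.8 and 21.4 CPM at 24 h, with overlapping groups. Its change of −0.06 ± 0.22 did not pass the test (edgeR adjusted p = 0.830), and the difference of 24 h from 3 h was −2.55 ± 0.20. The kinases Ripk1 and Ripk3, which act before Mlkl, did not pass it either (0.04 ± 0.072 and 0.39 ± 0.21, edgeR adjusted p = 0.632 and 0.0906). With library totals Ripk1 was called lower (−0.26), and with only the 8 libraries compared Ripk3 was called higher (0.41, adjusted p = 0.0477).

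**Figure D3:**
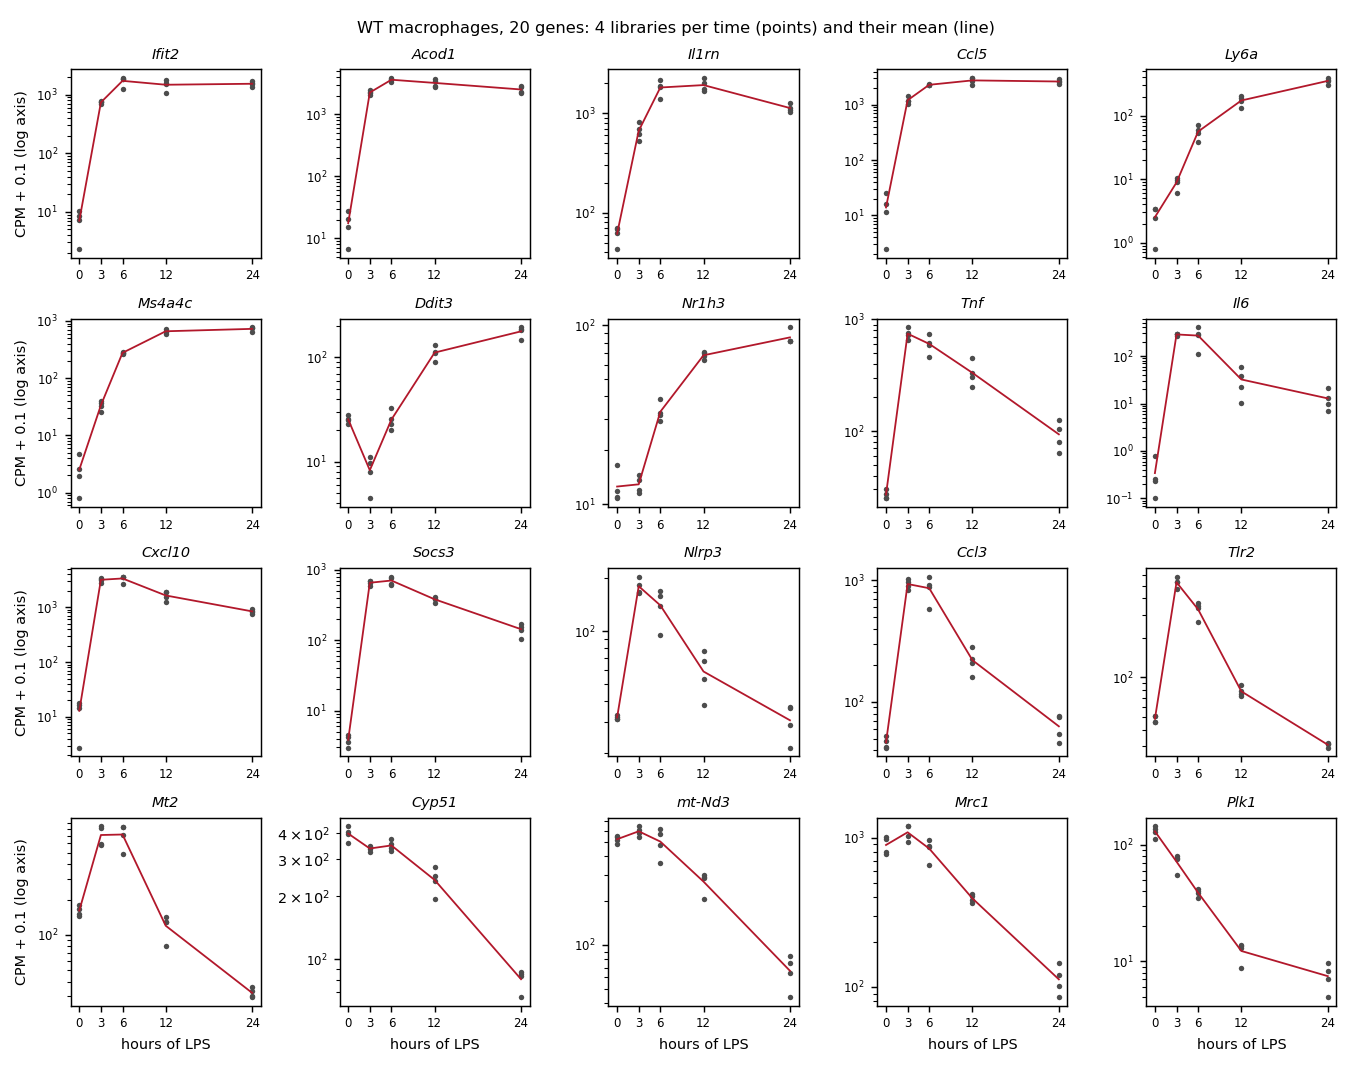
Level of 20 genes (CPM + 0.1, log axis) in WT over 24 h of LPS (x axis, hours), with 4 libraries per time as points and their mean as a line. Top row genes stay high, Ms4a4c, Ddit3 and Nr1h3 are highest at 24 h, Tnf to Socs3 decline from early peaks, Nlrp3 and Ccl3 return near 0 h, and Tlr2, Mt2 and the last 4 genes end below it.

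Enzymes of itaconate, nitric oxide and polyamine synthesis stood on both sides of 0 h. Of 15 tested of 17 listed 7 were higher and 7 lower (median −0.14). Acod1, which makes the antimicrobial metabolite itaconate from a citrate cycle intermediate, lay at 6.66, 15.4, 27.6 and 20.5 CPM at 0 h and 2824, 2769, 2305 and 2202 CPM at 24 h, a 145-fold rise (7.18 ± 0.27, edgeR adjusted p = 4.41e-14). The level at 24 h did not differ from 3 h by the test (0.16 ± 0.19, edgeR adjusted p = 0.470). Nos2, the inducible nitric oxide synthase, lay at 0.416, 1.01, 2.15 and 0.476 CPM at 0 h and 156, 139, 185 and 135 CPM at 24 h, after 801 CPM at 6 h. Its rise was 7.26 ± 0.32, or 7.90 without replicate 3 at 0 h. Ass1, which recycles citrulline to arginine, lay at 13.3, 31.5 and 97.0 CPM at 0, 3 and 24 h (2.87 ± 0.19 above 0 h). Srm, the spermidine synthase, lay at 30.4, 35.3, 30.6 and 31.1 CPM at 0 h and 7.72, 4.53, 4.08 and 4.46 CPM at 24 h (−2.64 ± 0.17, edgeR adjusted p = 3.94e-13). Odc1, the first polyamine enzyme, was at 182 and 165 CPM and not called, but was called lower without replicate 1 at 0 h (−0.23, adjusted p = 0.0362). Arg1 and Arg2 did not pass the filter.

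Glycolysis genes were mixed, with 11 of 23 higher, 6 lower and 6 not called (median 0.20), though 9 and 11 with library totals, where the median was −0.10. Pfkfb3, which makes the main activator of phosphofructokinase, lay at 67.3, 59.4, 58.8 and 65.7 CPM at 0 h and 213, 205, 219 and 247 CPM at 24 h (1.81 ± 0.12). Slc2a6, a hexose transporter of lysosomes, went from 201 CPM at 12 h to 56.3 CPM at 24 h, 2.13 ± 0.12 above 0 h. Lowest were Pdk1, which restrains pyruvate entry into the citrate cycle (−1.64 ± 0.11), and the lactate transporter Slc16a1 (−1.53 ± 0.14).

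Mitochondrially encoded respiratory chain RNAs fell late. Of 13 genes 10 were lower at 24 h than at 0 h, 3 over 2-fold, 1 was higher and 2 were not called (median −0.49), while the medians at 3 and 6 h were 0.29 and 0.23. Against 3 h 12 of 13 were lower at 24 h. Most of these genes are transcribed as parts of shared long precursors. Their changes ranged from −2.97 to 0.53. mt-Nd3, a complex I subunit, lay at 486, 517, 543 and 551 CPM at 0 h and 63.9, 83.3, 74.9 and 43.9 CPM at 24 h, a 7.85-fold fall (−2.97 ± 0.18, edgeR adjusted p = 2.76e-11). Another complex I subunit, mt-Nd1, lay at 1773, 2021, 2251 and 1844 CPM at 0 h and 841, 824, 818 and 759 CPM at 24 h (−1.28 ± 0.10). The cytochrome b gene mt-Cytb went from 1402 to 653 CPM in its mean (−1.10 ± 0.13). mt-Co1, a catalytic subunit of complex IV, was higher, at 595, 671, 696 and 663 CPM at 0 h and 888, 972, 1033 and 890.2 CPM at 24 h (0.53 ± 0.10, edgeR adjusted p = 5.86e-05). mt-Co2 was not called (−0.05 ± 0.11, edgeR adjusted p = 0.692). mt-Nd5 was not called either (−0.23 ± 0.15, edgeR adjusted p = 0.164), but was with the replicate number as a block (−0.22, adjusted p = 0.0121). Counts of these genes may include reads of nuclear copies.

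Nuclear genes of the respiratory chain moved little. Of 57 tested 7 were higher, 18 lower and 32 not called, with 0 over 2-fold and all changes between −0.81 and 0.81 (median −0.07). With library totals 1 was higher and 47 lower (median −0.37). Of 24 tested citrate cycle genes 12 were higher and 8 lower (median 0.14), but 1 and 12 with library totals (median −0.17). Fh1, which encodes fumarase, lay at 76.1, 74.6, 79.6 and 68.5 CPM at 0 h and 32.8, 22.6, 28.4 and 25.8 CPM at 24 h (−1.45 ± 0.11, edgeR adjusted p = 6.56e-12). Suclg2, a subunit of succinyl-CoA ligase, was next with −1.36 ± 0.21.

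Sterol synthesis genes were lower at 24 h. Of 24 genes 21 were lower at 24 h, 12 over 2-fold, 0 higher and 3 not called, with a median of −1.25 after −0.26, −0.18 and −0.31 at 3, 6 and 12 h. Against 3 h 20 were lower and 1 higher. Cyp51, which demethylates lanosterol, lay at 398, 359, 432 and 403 CPM at 0 h and 85.4, 65.9, 87.0 and 83.1 CPM at 24 h (−2.31 ± 0.10, edgeR adjusted p = 3.53e-17). Its mean at 12 h was 239 CPM. Sqle, the squalene epoxidase, had means of 248, 125 and 60.7 CPM at 0, 12 and 24 h (−2.03 ± 0.094), and the cholesterol carrier Stard4 of 72.1, 26.0 and 11.4 CPM (−2.65 ± 0.14). Not called were Mvd and Pmvk, 2 enzymes of the mevalonate pathway, and Tm7sf2 (−0.18 ± 0.18, −0.09 ± 0.15 and 0.23 ± 0.29). The sterol regulatory element TCACNCCAC was found before 1 of 17 members with a promoter entry (5.88%), Hmgcs1, which makes the precursor of mevalonate, against 1.04% of all.

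**Figure D4:**
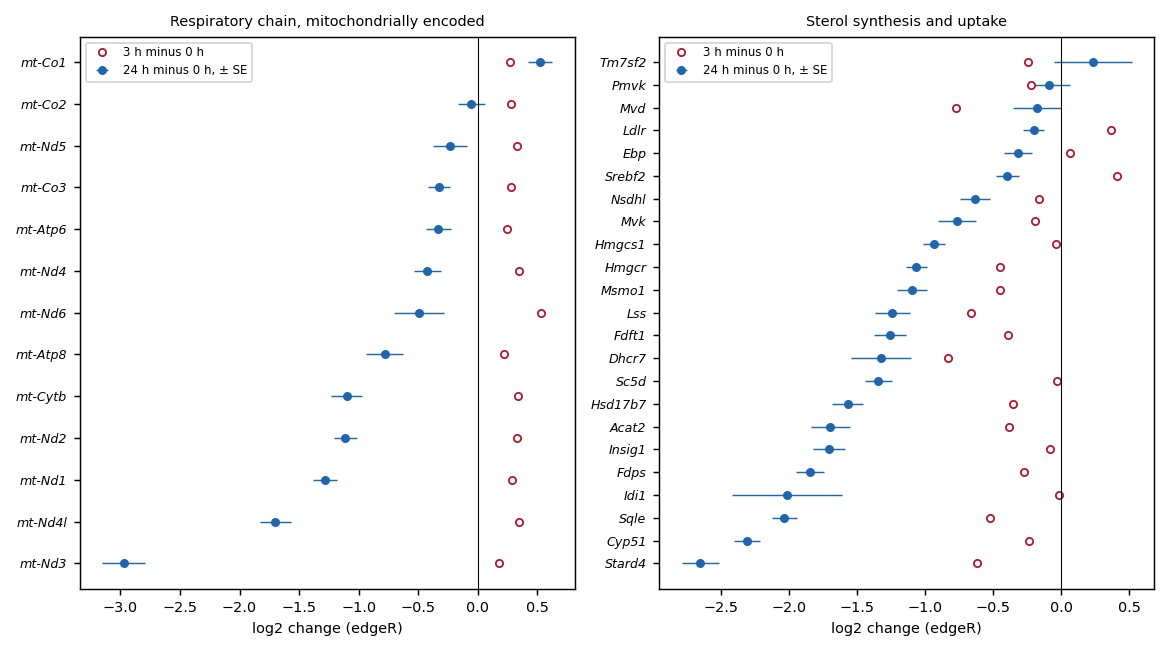
Log2 change against 0 h (x axis, edgeR) of 13 mitochondrially encoded genes (left) and 23 of the 24 sterol genes tested (right), at 24 h with SE as filled points and at 3 h as open points, 4 libraries per time. The mitochondrial genes lie above 0 at 3 h, and 12 of them lie below their 3 h value at 24 h.

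In a mixed list of 19 genes of LXR, the sterol-sensing receptor, its targets and other lipid handling, 9 were higher and 4 lower (median 0.04, −0.26 with library totals). Nr1h3, which encodes LXRα, lay at 10.7, 10.9, 11.8 and 16.5 CPM at 0 h and 81.8, 81.3, 81.2 and 97.2 CPM at 24 h (2.77 ± 0.12), after 12.8 CPM at 3 h. Hilpda, which slows lipolysis in lipid droplets, lay at 75.5, 72.5, 82.8 and 79.9 CPM at 0 h and 307, 236, 193 and 209 CPM at 24 h (1.60 ± 0.11). Pltp, a phospholipid transfer protein, rose by 1.33 ± 0.20, and the lipid-sensing receptor Pparg changed by −1.32 ± 0.25.

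Cell division genes had the lowest median of the 32 lists. All 34 mitosis genes were lower at 24 h, 33 over 2-fold (median −3.27), and all 34 were lower than at 3 h. Their medians at 3, 6 and 12 h were −0.92, −2.08 and −3.35. Plk1, the kinase that drives mitotic entry and spindle assembly, lay at 138, 144, 128 and 111 CPM at 0 h and 4.82, 8.15, 6.90 and 9.62 CPM at 24 h (−4.14 ± 0.15, edgeR adjusted p = 3.99e-18). Aspm, a spindle pole protein, lay at 87.8, 92.7, 75.0 and 71.5 CPM at 0 h and 1.21, 1.81, 2.35 and 2.82 CPM at 24 h, a 38.9-fold fall. Ube2c, which tags mitotic cyclins for destruction, and the cyclin Ccna2 changed by −4.26 ± 0.22 and −4.27 ± 0.18. Mki67, the proliferation marker Ki-67, had a mean of 264 CPM at 3 h, with values of 267, 276, 224 and 197 CPM at 0 h and 34.7, 35.5, 38.9 and 45.8 CPM at 24 h (−2.64 ± 0.11). Other deep falls were those of the kinetochore and spindle genes Knl1 (−3.84 ± 0.25) and Kif20b (−3.82 ± 0.16). The mildest fall of the list was that of Tpx2, a spindle assembly factor, at 103 and 57.1 CPM (−0.85 ± 0.11).

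Of 31 DNA replication genes 26 were lower, 18 over 2-fold, 2 higher and 3 not called (median −1.63). Among the higher ones was the clamp gene Pcna (0.50 ± 0.073). Rrm2, the ribonucleotide reductase subunit of dividing cells, lay at 50.3, 53.2, 51.0 and 50.1 CPM at 0 h and 3.38, 4.07, 7.21 and 9.39 CPM at 24 h (−3.06 ± 0.22), and Tk1, thymidine kinase, went from 35.7 to 4.31 CPM (−3.05 ± 0.19). Cdt1, a licensing factor, had dipped to 47.0 CPM at 3 h and was at 123, 118, 122 and 118 CPM at 0 h and 116, 139, 119 and 121 CPM at 24 h (0.04 ± 0.09, edgeR adjusted p = 0.711). It was called lower with library totals (−0.26). Chaf1b was not called. Rfc3, a clamp loader subunit, was not called (0.26 ± 0.12, edgeR adjusted p = 0.0564), but was with the replicate number as a block (0.26, adjusted p = 0.0463) and without any one of replicate 1 at 0 h and replicates 1 and 2 at 24 h (adjusted p of 0.0156 to 0.0470). Of 23 cyclins, CDK inhibitors and p53 targets 12 were higher and 8 lower (median 0.18, −0.12 with library totals). Cdkn1a, the inhibitor p21, lay at 269, 295, 263 and 248 CPM at 0 h and 921, 830.3, 698 and 879 CPM at 24 h (1.63 ± 0.12), and Gadd45b, a stress-induced inhibitor of growth, rose by 3.40 ± 0.10.

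Promoters of 2 mitosis genes are shown because all members of the list were lower. Cell cycle genes are known for a TTTGAA element near the start and for CCAAT boxes upstream of it. The element TTTGAA stood before 9 of 28 mitosis genes (32.1%) and 3 of 26 replication genes (11.5%), against 16.3% of 27025 promoters. CCAAT stood before 23 of 28 (82.1%) and 16 of 26 (61.5%), against 34.5%. In Cdc20 (chr4:118437344-118437593, minus strand), the activator of the anaphase-promoting complex, which went from 23.2 to 0.582 CPM, TTTGAA is in capitals. In Aspm (chr1:139454523-139454772, plus strand) all stretches in capitals are ATTGG, which is CCAAT read on the other strand (both GRCm38.p6).
Cdc20: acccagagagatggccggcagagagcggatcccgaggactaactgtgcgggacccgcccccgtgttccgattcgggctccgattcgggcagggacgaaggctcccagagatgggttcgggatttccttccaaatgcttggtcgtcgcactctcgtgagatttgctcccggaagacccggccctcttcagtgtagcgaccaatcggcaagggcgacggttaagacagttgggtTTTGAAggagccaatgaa
Aspm: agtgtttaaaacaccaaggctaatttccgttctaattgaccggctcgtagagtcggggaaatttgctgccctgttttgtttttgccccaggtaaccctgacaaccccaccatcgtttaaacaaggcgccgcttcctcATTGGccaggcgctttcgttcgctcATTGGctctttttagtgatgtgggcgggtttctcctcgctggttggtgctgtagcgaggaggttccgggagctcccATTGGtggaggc

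Macrophage identity genes were in part raised and in part lowered. Of 28 tested 15 were higher, 9 over 2-fold, 8 lower and 5 not called (median 0.53). Fcgr1, the high-affinity receptor for IgG, lay at 28.0, 24.9, 28.8 and 31.4 CPM at 0 h and 636, 602, 618 and 622 CPM at 24 h (4.45 ± 0.10, edgeR adjusted p = 8.67e-22). Siglec1, a sialic acid receptor induced by interferon, rose by 2.92 ± 0.23, and Axl, a receptor for dying cells, by 2.49 ± 0.14. Gas6, the ligand of Axl, went the other way, at 336, 315, 373 and 366 CPM at 0 h and 52.1, 40.5, 49.4 and 57.7 CPM at 24 h (−2.80 ± 0.11). Csf1r, the M-CSF receptor, lay at 504, 516, 482 and 505 CPM at 0 h and 471, 447, 413 and 456 CPM at 24 h, a small fall (−0.17 ± 0.073, edgeR adjusted p = 0.0443). Its call was lost under other settings, among them each fit without replicate 1, 2 or 4 at 0 h or replicate 2, 3 or 4 at 24 h, with an adjusted p of up to 0.159. Adgre1, which encodes the macrophage marker F4/80, rose by 1.45 ± 0.10. Lyz2, lysozyme, was not called (0.21 ± 0.12, edgeR adjusted p = 0.112), but was without replicate 3 at 24 h (0.30, adjusted p = 0.0326).

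Alternative activation markers moved both ways. Of 15 tested of 18 listed 5 were higher, 3 over 2-fold, and 7 lower, 5 over 2-fold (median −0.66, the value of Ccl24, which was not called). Mrc1, the mannose receptor, lay at 802, 781, 1011 and 976 CPM at 0 h and 84.9, 101, 119 and 143 CPM at 24 h, a 7.96-fold fall (−2.99 ± 0.15, edgeR adjusted p = 8.74e-14). Its mean at 3 h had been 1086 CPM. Clec10a, another lectin of this set, lay at 49.7, 43.5, 65.5 and 59.0 CPM at 0 h and 7.24, 4.75, 7.05 and 6.57 CPM at 24 h (−3.07 ± 0.17). Ccl22, a chemokine of the same list, changed in the opposite direction, by 3.20 ± 0.60, or 3.83 without replicate 4 at 0 h. Ccl17, a chemokine that shares the receptor CCR4 with Ccl22, was called higher too, from 1 count over the 4 libraries at 0 h to 51 at 24 h. Chil3, Ccl24 and Irf4 were not called.

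Lysosomal genes changed little on balance. Of 28 tested 15 were higher, 4 over 2-fold, 3 lower and 10 not called (median 0.24), but 10 higher and 12 lower with library totals (median −0.06). Ctsc, which activates granule proteases, lay at 233, 202, 224 and 230.1 CPM at 0 h and 1138, 950.5, 946 and 998 CPM at 24 h (2.18 ± 0.083), and Ctsh rose by 1.95 ± 0.091. Npc2, which moves cholesterol out of lysosomes, lay at 717, 704, 778 and 802 CPM at 0 h and 1960.3, 1831, 1699.8 and 1887 CPM at 24 h (1.30 ± 0.078). Of 8 tested genes of the phagocyte oxidase and superoxide defence 6 were higher and 1 lower (median 0.88). Sod2, the mitochondrial superoxide dismutase, lay at 136, 151, 154 and 151 CPM at 0 h and 1675, 1458, 1400.3 and 1347 CPM at 24 h (3.31 ± 0.085). Cybb, the catalytic subunit of the oxidase, rose by 1.95 ± 0.094. Sod1 was the member called lower.

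Secreted defence proteins included some of the largest rises over 0 h. Of 11 tested complement genes of 16 listed 7 were higher and 2 lower, among them the anaphylatoxin receptor C5ar1 (median 0.86). Of the 11, 3 had their highest mean at 3 h, 1 at 6 h, 5 at 12 h and 2 at 24 h. Cfb, the protease factor B of the alternative pathway, lay at 0.416, 0.84, 2.32 and 1.59 CPM at 0 h and 599.8, 606, 604 and 525 CPM at 24 h (8.83 ± 0.20, edgeR adjusted p = 2.82e-21), and was 2.73 ± 0.12 above 3 h. Its mean was highest at 12 h, at 759 CPM. C3, the central component, lay at 3.88, 5.88, 3.64 and 4.28 CPM at 0 h and 545, 548, 509.5 and 590.0 CPM at 24 h (6.95 ± 0.18). C1qc was not called (0.22 ± 0.10, edgeR adjusted p = 0.0585), but was with the replicate number as a block (0.22, adjusted p = 0.00876) and without any one of replicate 4 at 0 h and replicates 2 and 3 at 24 h (adjusted p of 0.0157 to 0.0315). Cfp, or properdin, was not called (0.14 ± 0.075, edgeR adjusted p = 0.106), but was with the block (0.14, adjusted p = 0.0468), and was called lower with library totals (−0.16).

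Acute phase and metal handling genes stood on both sides, with 8 of 14 tested higher and 5 lower (median 1.24). Saa3, serum amyloid A of macrophages, lay at 2.36, 9.23, 24.7 and 19.5 CPM at 0 h and 3316, 3197, 2987 and 3782 CPM at 24 h, a rise of 7.92 ± 0.44 and 2.36 ± 0.32 above 3 h (edgeR adjusted p = 7.67e-06). Lcn2, which sequesters iron siderophores, rose by 6.83 ± 0.34, from 0.541 to 65.4 CPM. Marco, a scavenger receptor for bacteria, lay at 6.52, 5.54, 3.31 and 24.0 CPM at 0 h and 294, 253, 195 and 825 CPM at 24 h, with replicate 4 the highest at both times. Its rise was 5.31 ± 0.90 (edgeR adjusted p = 6.82e-05), or 6.23 without replicate 4 at 0 h and 4.65 without replicate 4 at 24 h. The metallothioneins, small zinc-binding proteins, ended below their start. Mt2 had risen to 708 CPM at 3 h, with values of 145, 152, 181 and 166 CPM at 0 h and 30.1, 29.4, 33.1 and 35.7 CPM at 24 h (−2.33 ± 0.20), and Mt1 changed by −2.96 ± 0.16. Tfrc, the transferrin receptor, lay at 194, 166, 226 and 219 CPM at 0 h and 31.6, 29.4, 26.0 and 39.7 CPM at 24 h (−2.68 ± 0.12).

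In the prostaglandin and leukotriene pathway 8 of 17 tested genes were higher and 6 lower (median 0.17, −0.13 with library totals). Ptges, the inducible prostaglandin E synthase, lay at 1.53, 1.51, 1.66 and 1.27 CPM at 0 h and 180.2, 156, 173 and 131 CPM at 24 h (6.72 ± 0.20) and was 2.94 ± 0.14 above 3 h (edgeR adjusted p = 1.44e-14). Ptgs2, the inducible cyclooxygenase before it, had means of 1.44, 461 and 46.9 CPM at 0, 6 and 24 h (5.02 ± 0.56). Ptgs1, the constitutive cyclooxygenase, lay at 26.8, 26.5, 26.0 and 16.7 CPM at 0 h and 1.69, 2.94, 2.82 and 1.88 CPM at 24 h (−3.32 ± 0.25). Alox5, the first enzyme of leukotriene synthesis, changed by −3.44 ± 0.41. In tag CPM Ptgs1 was the higher of the 2 cyclooxygenase genes at 0 h and Ptgs2 at 24 h, a difference between genes that was not tested.

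Surface receptors showed strong changes both ways, 11 of 19 tested higher, 9 over 2-fold, and 6 lower (median 0.47). Cd69, an early activation antigen, lay at 0.971, 1.51, 2.32 and 1.43 CPM at 0 h and 235, 199.6, 234 and 266 CPM at 24 h (7.23 ± 0.21). Fpr2, a formyl peptide receptor, lay at 0.915, 25.9 and 129 CPM at 0, 3 and 24 h (7.11 ± 0.27). Ccr1 and Ccr3 were not called. Of 15 tested clock genes 4 were higher, 3 lower and 8 not called (median 0.08, −0.22 with library totals), after medians of −1.09 and −1.62 at 3 and 6 h. Per1, a repressor of the clock, lay at 5.27, 3.69, 4.80 and 5.55 CPM at 0 h and 28.0, 21.7, 24.0 and 23.5 CPM at 24 h (2.32 ± 0.17) and had been at 1.51 CPM at 3 h. Per2 went from 3.55 to 0.844 to 15.8 CPM at 0, 3 and 24 h.

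Stress pathways moved in single genes. Of 18 tested genes of the unfolded protein response 7 were higher and 4 lower (median 0.14), but 2 and 8 with library totals (median −0.16). Ddit3, the factor CHOP, lay at 25.2, 27.9, 23.0 and 25.1 CPM at 0 h and 147, 194, 182 and 187 CPM at 24 h (2.81 ± 0.14, edgeR adjusted p = 3.36e-14), after 8.15 CPM at 3 h. Asns, asparagine synthetase, a gene of the same stress network, fell by contrast (−1.77 ± 0.13). Among 20 targets of NRF2, the factor of the oxidative stress response, 8 were higher and 5 lower (median 0.04, −0.27 with library totals). Prdx1, a peroxidase, lay at 1181, 1266, 1321 and 1369 CPM at 0 h and 3364, 2871, 2523 and 2718 CPM at 24 h (1.16 ± 0.10), and Gclc, which limits glutathione synthesis, went from 164 to 41.2 CPM (−2.00 ± 0.16).

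Several genes outside these lists were among the largest changes. Ms4a4c, a membrane protein gene induced by interferon, lay at 0.693, 1.85, 4.63 and 2.54 CPM at 0 h and 753, 772, 739 and 638 CPM at 24 h (8.25 ± 0.21), 4.43 ± 0.16 above 3 h (edgeR adjusted p = 9.22e-16). Ly6a, the surface antigen Sca-1, lay at 0.693, 2.35, 3.31 and 3.33 CPM at 0 h and 309.7, 394, 363 and 347 CPM at 24 h (7.21 ± 0.27), after 8.77 CPM at 3 h. Id1, a target of BMP and TGF-β signals, lay at 40.5, 44.5, 32.3 and 38.1 CPM at 0 h and 2.65, 3.17, 0.784 and 1.41 CPM at 24 h (−4.34 ± 0.24), and Pmepa1, a feedback inhibitor of TGF-β signalling, at 92.5 and 4.78 CPM (−4.28 ± 0.27). St6gal1, a sialyltransferase, and Cpeb1, which regulates polyadenylation, changed by −3.80 ± 0.26 and −4.60 ± 0.18. In plain CPM the largest rises beside Rsad2, Saa3, Ccl5 and Acod1 were those of Malat1, Fth1 (ferritin heavy chain), Actb (β-actin) and H3f3b (histone H3.3). Fth1 rose from 3875 to 7919 CPM and H3f3b from 987 to 3216 CPM. The largest falls beside Mrc1 and the mitochondrial genes were those of Lgals3 (galectin-3), Eef1a1 (a translation elongation factor) and Eif3a (an initiation factor). Eif3a went from 1091 to 538 CPM (−1.02 ± 0.073), and Eef1a1, which has many processed copies, from 1198 to 663 CPM.

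Markers of other cell types were low or mixed. Lymphoid markers summed to 2.18 to 3.64 CPM at 0 h and 0.226 to 3.38 CPM at 24 h, and mast cell and basophil markers to 1.16 to 2.18 and 0.235 to 0.679 CPM, with none of either list past the filter. Cd3g, Cd79a and Gzma among the former, and Cpa3, Fcer1a, Cma1 and Tpsb2 among the latter, were at 0 in both groups. Of 12 neutrophil markers Ly6g and Retnlg were at 0 in both groups, 5 were tested, 2 higher and 1 lower, and the sum was 212 to 241 CPM at 0 h and 154 to 166 CPM at 24 h. The lower one was Mmp8, a collagenase that made up most of the sum at 0 h (185 and 82.6 CPM, −1.17 ± 0.076), and the higher ones were Csf3r, the G-CSF receptor (6.34 and 37.3 CPM, 2.55 ± 0.14), and S100a8 (0.25 ± 0.11, edgeR adjusted p = 0.0471). S100a8 lost its call without any one of replicates 1, 2 and 4 at 0 h or 1, 2 and 3 at 24 h, with an adjusted p of up to 0.173, and turned to −0.048 with library totals. Of 10 monocyte markers 8 were tested, 6 higher and 2 lower, with sums of 139.7 to 185 and 196 to 232 CPM. Dendritic cell markers summed to 2.69 to 5.08 CPM at 0 h and 23.8 to 35.5 CPM at 24 h, 4 of 5 tested higher, led by Ccr7 (5.45 ± 0.39, or 6.10 without replicate 1 at 0 h), with Cd209a at 0 in all 4 libraries at 24 h. Osteoclast markers summed to 186 to 254 and 86.0 to 123 CPM, 1 of 6 tested higher and 4 lower. Stromal markers summed to 0.555 to 1.59 and 2.51 to 4.75 CPM, and red cell and platelet precursor markers to 2.77 to 7.61 and 1.10 to 2.41 CPM. Of the stromal markers Dcn had 0 counts at 0 h and 47 at 24 h. The part of such cells in the changes above was not tested. Named after their values were seen, outside the rule for named genes, were B2m, C5ar1, Ccl17, Ccl6, Cd80, Csf1, Cx3cl1, Cxcl10, Cxcl14, Eif2ak2, Erap1, Gmfg-ps, H2-K1, Hmgcs1, Ifnb1, Il1rn, mt-Co1, Mt1, Mt2, Nlrp1b, Pcna, S100a8, Sod1, Tfrc, Tgfb1, Tirap, Tlr13, Tlr2 and Tpx2.

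Few genes were called for a different response in the libraries labelled KO. Otulin, the targeted gene, lay at 42.9, 38.8, 45.4 and 40.3 CPM at 0 h and 37.6, 36.2, 28.8 and 28.2 CPM at 24 h in WT (−0.36 ± 0.10, edgeR adjusted p = 0.00334). With scaling over the 16 libraries of both genotypes its range was 42.9 to 50.2 CPM in WT and 34.0 to 48.9 CPM in the libraries labelled KO at 0 h, and 31.4 to 42.0 and 51.3 to 58.3 CPM at 24 h. The tag level thus does not check the KO label, and the place of the tag relative to the deleted part is not given in the sources used here. The difference between the responses was tested over these 16 libraries, and 1 of 12226 genes was called by edgeR (0.00818%), while 474 had an unadjusted p under 0.05. The gene was Gmfg-ps, a pseudogene at 0 to 5.50 CPM that can share reads with its parent gene, with a difference of 4.77 ± 0.77 (edgeR adjusted p = 0.0399). The count was 0 with the replicate number as a block, and 0 without any one library except replicate 1 of KO at 0 h (2 genes) and replicates 1 and 3 of KO at 24 h (1 gene each). DESeq2 called 1 gene too, in the other direction. A p that misses the threshold does not show equal responses.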

How the data were processed

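RNA of bone marrow-derived macrophages was sequenced with QuantSeq 3′ FWD, a kit that reads 3′ ends, per the labels' protocols. Per the submitters' processing notes the tools were RSEM 1.3.3, STAR 2.7.10a, UMI-tools 1.1.2, cutadapt 3.7 and FastQC 0.11.9, with the build GRCm39. Their order and the annotation release are not stated there. The table the authors deposited holds expected counts per gene, all whole numbers, so that rounding changed none. Genes are named by symbol.

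The 20 WT libraries were fitted together with edgeR 4.0.16 (R 4.3.3): TMM scaling, filterByExpr with a minimum count of 10, robust quasi-likelihood tests and Benjamini-Hochberg adjustment at 0.05. Calls over 2-fold used glmTreat with a log2 threshold of 1. The KO comparison used an interaction term over 16 libraries. SE is the log2 change over the root of F. Alternatives used DESeq2 1.42.0, limma 3.58.1, other scalings, filters and library sets, and each library left out. The fit was also run on simulated counts in which a chosen set of genes was changed by known folds and the others were not. Most genes were called in the real data, so that run does not check the scaling. The members and gene lists were chosen with earlier results of these data known.

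Named genes are, by rule, the 10 highest and 10 lowest changes among called genes with at least 2 CPM in both groups and no overlap, the 8 largest CPM changes each way, per list up to 4 called members of at least 5 CPM and up to 3 not called, the highest cell type markers, and Otulin, Tnf, Il1b, Il6, Nlrp3, Nos2, Acod1, Cd14, Tlr4, Csf1r and Mki67; not every such gene is described, and some are not reported here. Libraries of the same group were not copies of each other (chi-square per degree of freedom 2.55 to 5.94 over 6 pairs at 0 h and 6 at 24 h). The labels number the replicates 1 to 4 at each time. Samples with the same number deviated together (every correlation from 0.102 to 0.320, other pairs −0.194 to 0.0982). The numbers were therefore taken to pair the samples, but only in the alternative fit with the replicate number as a block. The main fit, which gave the SE and p-values above unless another setting is named, did not use the pairing. The labels do not say whether the same animals gave both times, so p-values measure the spread between these samples. Promoters are RefSeq sequences on GRCm38.p6, a build other than the counts'.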

Additional observations from a re-analysis of the deposited data

Results flagged for a closer look

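Among 360 groups of 4 libraries, 22 held a library far from the other 3 by Dixon's criterion, which chance gives in about 1 in 20 groups. Marco stood at 23.95 CPM in replicate 4 at 0 h, with the others at 3.31 to 6.52 CPM, and at 825.2 CPM in replicate 4 at 24 h, with the others at 195 to 294 CPM. Il12b stood at 120.3 CPM in replicate 1 at 24 h, with the others at 43.2 to 49.5 CPM, and Ptgs1 at 16.65 CPM in replicate 4 at 0 h, with the others at 26.0 to 26.8 CPM.

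Replicate 1 at 24 h stood apart in 9 further genes. It was the highest in Ccr7 (18.81 CPM), Cd274 (1156 CPM), Gclc (54.75 CPM), Srm (7.718 CPM) and Tnfsf9 (6.512 CPM). It was the lowest in Eif2ak2 (85.14 CPM), Klf2 (28.22 CPM), Socs1 (33.28 CPM) and Tpx2 (46.31 CPM). Other libraries apart at 24 h were replicate 2 for Cdc20 (0.9054 CPM, highest), replicate 3 for Casp4 (101.4 CPM, highest) and replicate 4 for Cfb (525.2 CPM, lowest) and Nr1h3 (97.16 CPM, highest). At 0 h they were replicate 2 for Srm (35.26 CPM, highest) and Ccl17 (0.1679 CPM, highest, a single count), replicate 3 for Birc3 (10.59 CPM, lowest) and replicate 4 for Cd274 (28.07 CPM, highest) and Irf4 (1.586 CPM, highest).

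The response of Gmfg-ps differed between the genotypes by 4.77 ± 0.77 on the log2 scale by the interaction test (edgeR adjusted p = 0.0399). It lay at 1.46 to 1.76 CPM at 0 h and 1.35 to 2.28 CPM at 24 h in WT, and at 0 to 0.366 and 2.41 to 5.50 CPM in KO.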

How the results depend on the processing

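Depth limits the genes with few counts at 0 h, whose folds without 1 library are given above. The count of genes called at 24 h against 0 h was 7501 to 9258 over all alternatives, that over 2-fold 1793 to 2709 and that against 3 h 7344 to 8857, with 8133 to 8310, 2222 to 2303 and 7898 to 8133 when 1 library was left out. With library totals Chaf1b, Irf4, Klf2, Mvd, Nfkbid, Odc1, Pmvk, Stat5a, mt-Co2 and mt-Nd5 were also called lower. There 2760 genes were higher and 1807 over 2-fold lower, in place of 4193 and 1122. Of the genes named, Cdt1 (−0.26), Cfp (−0.16) and Ripk1 (−0.26), none of them called with TMM scaling, turned direction and were called lower with library totals. S100a8 turned to −0.048 and lost its call there, and C1qc, Ccr1, Ccr3, Fos, Icosl, Irf3, Lyz2, Osm, Rfc3 and Tm7sf2 changed sign with no call under either scaling. The cause was not tested. Genes not called in the report's fit were also called by DESeq2 (C1qc, Ccl3, Cfp, Cxcl1 and Rfc3), with only the 8 libraries compared (C1qc, Ccl3, Cxcl1, Klf2, Lyz2, Rfc3 and Ripk3), with RLE scaling (C1qc, Cfp and Rfc3), with a minimum count of 30 (C1qc and Rfc3), with no filter (C1qc, Klf2 and Lyz2) and by limma (Irf4). Calls of the report's fit were lost by DESeq2 and with RLE scaling (Cd80, Csf1r and Cx3cl1 in each) and by limma (Cx3cl1). Others were lost with only the 8 libraries compared (Cd80 and S100a8), a minimum count of 30 (Csf1r) and no filter (S100a8). The genes called for a different response in KO were 5 with no filter, 2 with all 40 libraries, 0 with a minimum count of 30 (387 at an unadjusted p under 0.05) and 0 with the replicate block (490 at an unadjusted p under 0.05), while DESeq2 and limma called 1 each. Leaving out 1 library gave 0 to 2, with 376 to 680 at an unadjusted p under 0.05 where it gave 0. With the replicate number as a block, 8828 genes were called, of which 8474 were among the 8489, 2429 over 2-fold and 8589 against 3 h. The block changed no other call of a gene named here than those given for Cxcl1, mt-Nd5, Rfc3, C1qc and Cfp and the count for KO.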
